A study of Mus musculus with 9 samples.

Results

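The genes described here encode the 4 classic families of guidance cues, the semaphorins, ephrins, Slits and netrins, with their plexin, neuropilin, Eph, Robo and Unc5 receptors. They were picked out by gene symbol, with earlier results of these data known. Of the 24341 listed genes 69 matched: 35 ligands, 33 receptors and the antisense transcript *Plxna4os1*. The 9 samples are RNA from mouse embryonic fibroblasts (MEFs), cultured connective-tissue cells of embryos, labelled C57BL/6: 3 were WT, 3 *Atm-/-* and 3 *Sirt6-/-*. *Atm* encodes a DNA damage kinase and *Sirt6* a chromatin deacylase. All cells were grown in DMEM with serum and no other agent is given. Mice without p53, alone or together with *Atm*, are also named as donors in the labels, with no sample tied to them, and the study's methods list *Atm-/-; p53-/-* and *Sirt6-/-* MEFs that were immortalized and came from separate laboratories. Effects of genotype, p53 status and cell line therefore cannot be told apart, and nothing shows whether the 3 samples of a genotype came from separate cultures, so p-values measure only the spread between these samples.

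Guidance cues were found as signals that attract or repel the growing tips of axons. Class 3 semaphorins are secreted and mostly bind neuropilins, which pass the signal on through plexins, while the other semaphorins are mostly held in the membrane and bind plexins directly. Ephrins are held on the cell surface and bind Eph receptor tyrosine kinases on the neighbouring cell, with signals in both directions. Slits bind Robo receptors, and netrins bind Dcc, neogenin and the Unc5 receptors. In connective tissue the same molecules act in cell spacing, tissue boundaries and the patterning of vessels and nerves.

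Total counted reads ranged from 32187040 to 33837949 per sample, so 3 reads correspond to 0.0887 to 0.0932 CPM (reads scaled to depth alone), a floor that covers counting error only. Only 4, 5 and 7 reads of *Sirt6* were counted in the 3 *Sirt6-/-* samples, against 402 to 487 in WT. *Atm* had 3443 to 3768 reads in the samples labelled *Atm-/-* and 1536 to 1627 in WT, so its RNA level does not show the deletion, and *Trp53* was lower there (log2 fold change -3.09). Of 12 fibroblast markers, 11 were at 1 RPKM (reads scaled to listed transcript length and to sequencing depth) or more in WT and *Atm-/-* and 10 in *Sirt6-/-*, where *Thy1* was at 0.271 RPKM, and *Lum* was under 1 RPKM in all. Their summed level was 7206 to 7672 RPKM in WT, 7677 to 7757 in *Sirt6-/-* and 3515 to 3539 in *Atm-/-*. These sums hide opposite moves: of 11 tested markers 4 passed as higher and 7 as lower in *Sirt6-/-*, and 1 and 10 in *Atm-/-*. In *Sirt6-/-* *S100a4* rose from 882 to 2901 RPKM and *Col1a1* fell from 1739 to 507. The marker that rose in *Atm-/-* was *Thy1*, from 13.3 to 52.8 RPKM. Endothelial markers summed to at most 2.52 RPKM and neuron markers to at most 1.205 RPKM in any sample, although 4 of 8 neuron markers passed as higher in *Atm-/-* and 1 in *Sirt6-/-*, and *Tie1*, *Foxd3* and *Olig2* had no reads. The endothelial marker *Kdr* stood at 0.583, 2.11 and 0.0408 RPKM in WT, *Atm-/-* and *Sirt6-/-* (log2 fold changes 1.69 and -3.89, both passing). *Erg*, with 0 reads in WT, passed as higher in *Sirt6-/-*, at 0.194 RPKM. Glial markers summed to 26.9 to 34.7 RPKM in WT, where *Mbp* was the only one at 1 RPKM or more, and to at most 9.02 and 1.498 RPKM in *Atm-/-* and *Sirt6-/-*. Epithelial markers summed to 12.5 to 15.0, 29.9 to 33.2 and 10.2 to 12.7 RPKM in WT, *Atm-/-* and *Sirt6-/-*, blood cell markers to 7.37 to 8.33, 12.4 to 13.5 and 10.6 to 12.8, and skeletal muscle markers to 7.29 to 8.76, 0.636 to 1.01 and 0.866 to 1.07. The part of these differences in the results was not tested. In bulk RNA, fewer cells that make a transcript and less of it per cell cannot be told apart.

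In WT MEFs 38 of the 69 genes reached a mean of 1 RPKM, against 39 in *Atm-/-* and 41 in *Sirt6-/-*, and 30 did so in all 3 genotypes. The genes at 10 RPKM or more numbered 19 in WT, 15 in *Atm-/-* and 15 in *Sirt6-/-*. Guidance genes took 0.494% to 0.514% of all reads in the WT samples, 0.305% to 0.309% in *Atm-/-* and 0.329% to 0.330% in *Sirt6-/-*, and the WT samples did not overlap with either knockout. *Plxnb2*, *Sema3c*, *Nrp2*, *Plxna1*, *Efnb2*, *Nrp1*, *Slit2* and *Epha2* had means of at least 16 RPKM in every genotype. At the other end, 13 genes had too few reads to be tested in any comparison, with at most 19 in 1 sample: *Epha5*, *Epha6*, *Epha8*, *Epha10*, *Ephb1*, *Sema5b*, *Ntn5*, *Robo3*, *Robo4*, *Slit1*, *Unc5a*, *Unc5d* and *Plxna4os1*. Of these *Epha6*, *Unc5a* and *Plxna4os1* had no reads in any of the 9 samples, which allows up to 3 reads per library.

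**Figure D1:**
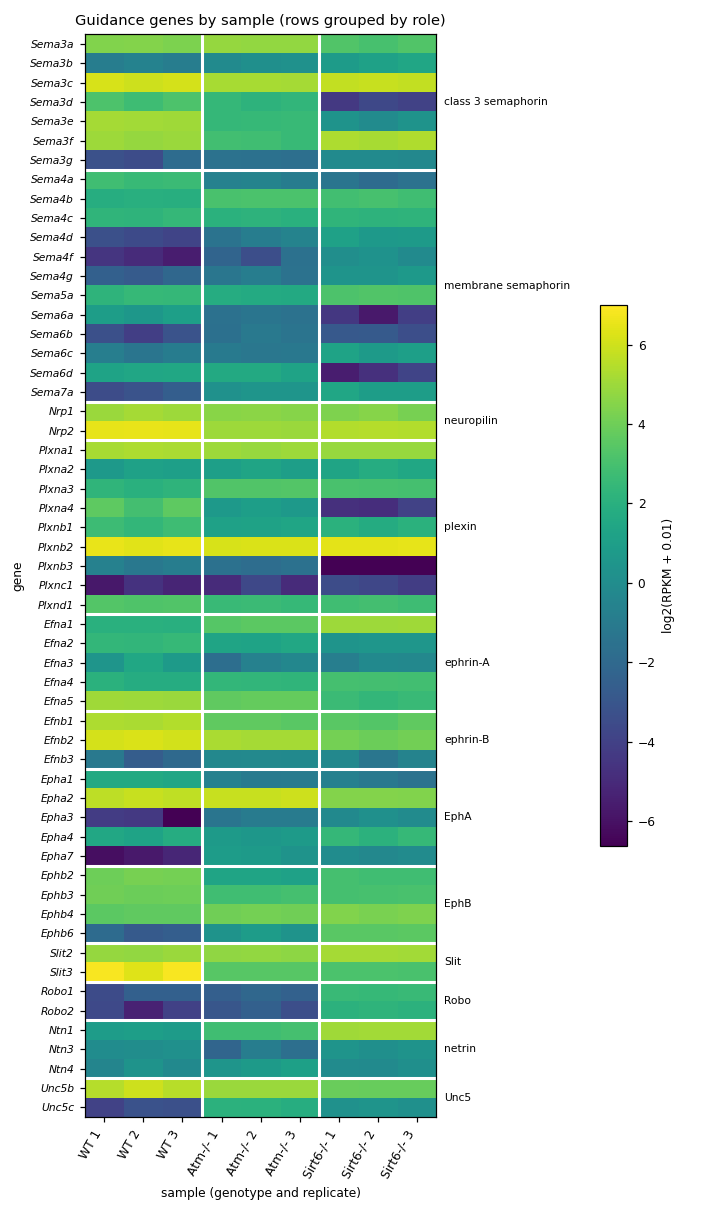
Deposited RPKM of the 56 guidance genes that could be tested in at least 1 comparison, as log2(RPKM + 0.01), with samples in columns and genes grouped by role in rows. The 3 samples of a genotype share a colour in most rows, and *Sema3d*, *Sema6d*, *Plxna4* and *Plxnb3* are dark in *Sirt6-/-* alone.

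Between *Atm-/-* and WT, 18 guidance genes were higher, 29 lower, 7 did not pass and 15 had too few reads to test (quasi-likelihood test of edgeR, Benjamini-Hochberg adjusted p under 0.05 over all genes tested). Over all 13283 genes of that test 68.4% passed, 34.7% as higher and 33.6% as lower. Among the guidance genes 11 ligands rose and 16 fell, and 7 receptors rose and 13 fell. A change of at least 2-fold that passed was found for 13 genes upward and 18 downward, while 22.5% of all tested genes changed that much in either direction. The median log2 fold change was -0.40 over the 54 tested members and 0.02 over all tested genes. Of the tested members 57.41% passed with a change of at least 2-fold. Their median absolute log2 fold change was 1.161, against 0.3986 over all tested genes. The filter on reads can keep a gene that has enough reads in only 1 genotype, among members and other genes alike. No test was made of whether these shares set the family apart from other genes of similar level. With library totals in place of TMM scaling, which assumes that most genes do not change, the median of all genes moved to 0.18 and 6156 genes passed as higher and 3326 as lower, against 4611 and 4469 with TMM. Changes are given relative to TMM.

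Between *Sirt6-/-* and WT, 26 guidance genes were higher, 26 lower, 4 did not pass and 13 were not tested. Of all 13206 tested genes 76.6% passed, 39.2% as higher and 37.4% as lower. By role, 15 ligands rose and 13 fell, and 11 receptors rose and 13 fell. At 2-fold or more 17 rose and 20 fell, which was 66.07% of the tested members, beside 29.3% of all tested genes in either direction. The median absolute log2 fold change was 1.893 over the tested members and 0.5361 over all tested genes. Whether this sets the family apart from genes of similar level was not tested. The median log2 fold change was 0.04 over the 56 tested members, also with *Plxnb3* set at its bound, and 0.02 over all genes. Library totals moved the median of all genes to 0.11 in this comparison. Both comparisons use the same 3 WT samples, so their values are given side by side.

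**Figure D2:**
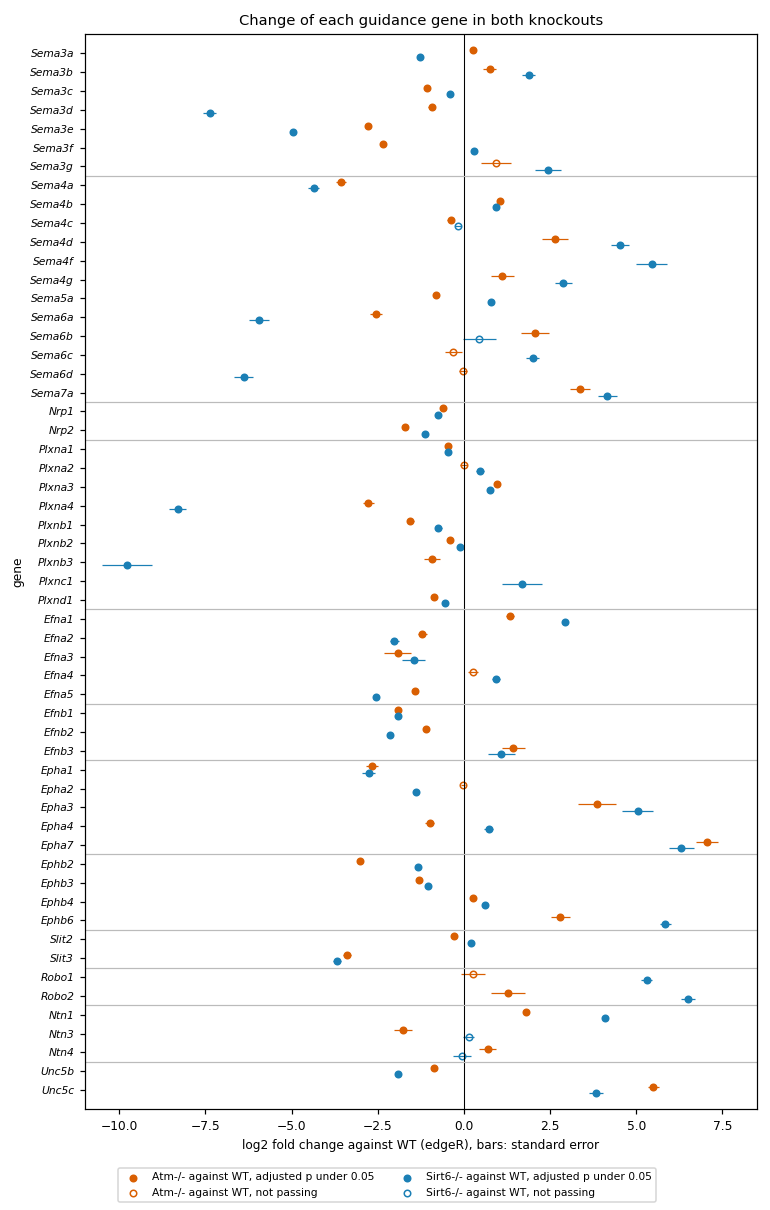
Log2 fold change against WT (x axis, edgeR) of each guidance gene (y axis, grouped by role as in the heat map) in *Atm-/-* (orange) and *Sirt6-/-* (blue), with standard errors as bars and open dots for an adjusted p of 0.05 or more. *Robo1*, *Robo2* and *Ephb6* lie far to the right in *Sirt6-/-*, and *Plxna4*, *Sema3d* and *Sema6d* far to the left. The position of *Plxnb3* in *Sirt6-/-* depends on the prior count, since it had no reads there.

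Class 3 semaphorins are secreted repellents and attractants. Of 7 members 2 rose and 4 fell in *Atm-/-*, and 3 rose and 4 fell in *Sirt6-/-*. Their summed level was 155.5 to 172.7 RPKM per WT sample, 82.3 to 85.0 in *Atm-/-* and 108.4 to 109.8 in *Sirt6-/-*, and these sums do not overlap. *Sema3c*, which also steers neural crest cells of the heart, was the leading member in all 3, with 12235, 10430 and 11683 reads in WT, 6046, 6090 and 5829 in *Atm-/-* and 8687, 9396 and 8917 in *Sirt6-/-* (log2 fold changes -1.07 and -0.40). *Sema3e*, the ligand of plexin D1 in vessel patterning, had 8427, 7718 and 7635 reads in WT, 1219, 1274 and 1306 in *Atm-/-* and 285, 212 and 293 in *Sirt6-/-*. Its log2 fold change was -2.78 (standard error 0.06, edgeR adjusted p = 1.8e-14) in *Atm-/-* and -4.96 (0.09, adjusted p = 1.0e-15) in *Sirt6-/-*. *Sema3d* had 2037, 1486 and 1973 reads in WT and 1151, 963 and 1043 in *Atm-/-*, and 8, 14 and 12 in *Sirt6-/-*, where it was close to absent (log2 fold changes -0.94 and -7.37, standard errors 0.10 and 0.19). *Sema3f* went down in 1 knockout and up in the other. It had 3708, 3245 and 3538 reads in WT, 809, 796 and 647 in *Atm-/-* and 4447, 4094 and 4710 in *Sirt6-/-* (log2 fold changes -2.36 and 0.28). *Sema3a*, the prototype repellent of sensory axons, did the reverse, with 4525 to 4984 reads in WT, 6123 to 6500 in *Atm-/-* and 1795 to 2225 in *Sirt6-/-* (log2 fold changes 0.25 and -1.27). *Sema3b* and *Sema3g* were low: *Sema3b* rose from 0.574 RPKM in WT to 1.08 in *Atm-/-* and 2.25 in *Sirt6-/-*. *Sema3g* rose in *Sirt6-/-* (log2 fold change 2.44, and 3.19 without WT replicate 3), and its 36 to 42 reads in *Atm-/-* against 10 to 34 in WT did not pass (adjusted p = 0.073). It passed with library totals (0.0377), with at least 10 counts in every sample (0.0448), in the joint fit of all 9 samples (0.0378) and without WT replicate 3 (0.00497).

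4 of these genes, *Sema3d*, *Sema3a*, *Sema3e* and *Sema3c*, lie in this order on the plus strand of chromosome 5, from 12383385 to 17730268 (GRCm38, GENCODE M21), with gaps of 536, 423 and 3318 kb between them. In *Sirt6-/-* all 4 were lower, by -7.37, -1.27, -4.96 and -0.40 on the log2 scale, and in *Atm-/-* *Sema3a* was higher and the other three lower. *Sema3b* and *Sema3f* are neighbours within this gene set on chromosome 9, 72.3 kb apart, and in *Atm-/-* *Sema3b* rose while *Sema3f* fell. The 250 bases before the RefSeq start of the 4 chromosome 5 genes are shown because these genes fell by such different amounts in *Sirt6-/-*. Sequences are from GRCm38.p6, plus strand, 5′ to 3′. Capitals mark the GC box GGGCGG or the box CCAAT, on either strand.
Sema3d, chr5:12382916-12383165: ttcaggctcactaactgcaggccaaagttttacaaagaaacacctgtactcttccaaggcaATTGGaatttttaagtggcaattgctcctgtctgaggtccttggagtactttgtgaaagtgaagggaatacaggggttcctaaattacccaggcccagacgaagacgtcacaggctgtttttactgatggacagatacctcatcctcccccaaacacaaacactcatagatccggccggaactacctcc
Sema3a, chr5:13396534-13396783: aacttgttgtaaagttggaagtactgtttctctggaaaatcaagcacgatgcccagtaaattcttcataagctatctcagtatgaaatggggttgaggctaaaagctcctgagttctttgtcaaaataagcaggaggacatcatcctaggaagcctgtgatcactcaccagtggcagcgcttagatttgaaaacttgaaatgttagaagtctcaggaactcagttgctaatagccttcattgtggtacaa
Sema3e, chr5:14025026-14025275: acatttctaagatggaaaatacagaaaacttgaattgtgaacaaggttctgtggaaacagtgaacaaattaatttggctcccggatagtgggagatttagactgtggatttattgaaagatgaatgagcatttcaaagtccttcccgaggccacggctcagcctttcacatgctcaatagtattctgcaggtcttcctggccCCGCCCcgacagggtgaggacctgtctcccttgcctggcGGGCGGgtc
Sema3c, chr5:17574566-17574815: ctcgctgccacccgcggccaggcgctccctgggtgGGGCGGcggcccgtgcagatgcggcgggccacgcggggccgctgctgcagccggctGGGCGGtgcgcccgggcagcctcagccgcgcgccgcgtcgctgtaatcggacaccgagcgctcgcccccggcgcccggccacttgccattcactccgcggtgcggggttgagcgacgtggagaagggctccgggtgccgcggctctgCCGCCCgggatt
*Sema3c* had 39 CpG and 3 GGGCGG in this window, *Sema3e* 7 CpG and 2 GGGCGG, *Sema3d* 4 CpG and 1 CCAAT, and *Sema3a* 2 CpG and none of the letters searched. Across 32851 RefSeq windows of the same length the median was 6 CpG, 32.7% held GGGCGG and 33.9% held CCAAT on either strand, and 12.4% held TATAAA and 6.02% CACGTG, which none of these 4 windows held. *Sema3a* has a longer gene model that starts at 13125414, and that of *Sema3c* starts at 17574281, so both windows lie inside the gene models, and the counts do not show which start was used.

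**Figure D3:**
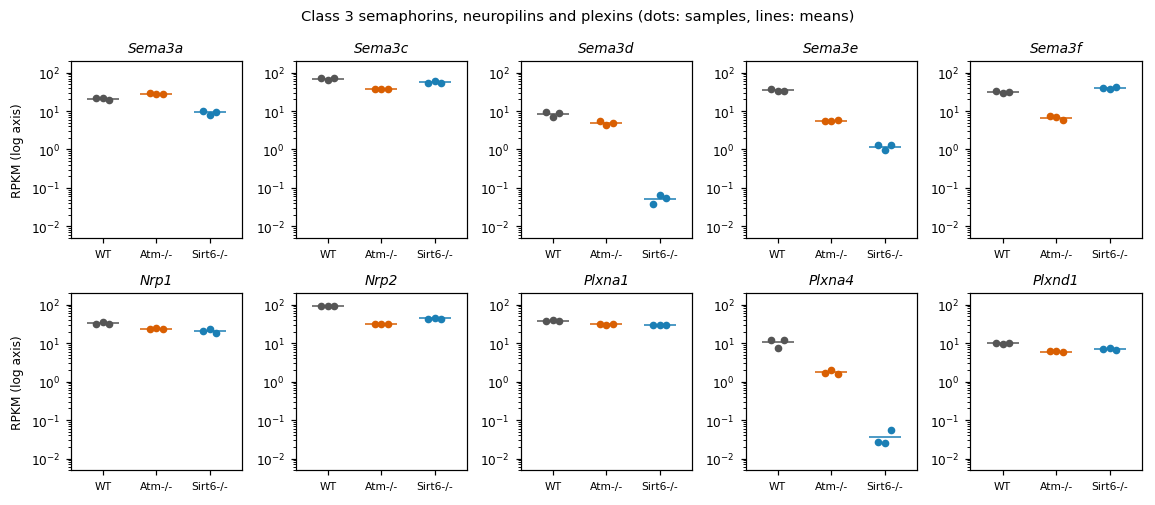
RPKM per sample (log axis) of 5 class 3 semaphorins, both neuropilins and 3 plexins in WT, *Atm-/-* and *Sirt6-/-*; lines mark means. *Sema3d* and *Plxna4* fall to means of 0.0531 and 0.0354 RPKM in *Sirt6-/-*, while *Nrp1*, *Plxna1* and *Plxnd1* stay within 0.9 log2 units of WT.

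Both neuropilins, the binding subunits for class 3 semaphorins and for forms of VEGF, were lower in both knockouts. *Nrp2* had 14375, 14451 and 14272 reads in WT, 4913, 4960 and 4704 in *Atm-/-* and 6593, 6856 and 6864 in *Sirt6-/-*, so the 3 genotypes did not overlap (log2 fold changes -1.70 and -1.14, standard error 0.04 in each, edgeR adjusted p = 1.1e-13 and 5.2e-12). *Nrp1* had 6154, 6982 and 6307 reads in WT, 4672, 4922 and 4322 in *Atm-/-* and 3897, 4409 and 3599 in *Sirt6-/-* (log2 fold changes -0.62 and -0.76). Per length *Nrp2* stood at 91.1 ± 1.12 RPKM in WT (SD, n = 3) and *Nrp1* at 32.7 ± 2.48, and in *Atm-/-* they were closer, at 31.4 ± 0.396 and 23.8 ± 1.17.

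Plexins are the signalling receptors of the semaphorins, and 1 rose and 6 fell in *Atm-/-*, and 3 rose and 6 fell in *Sirt6-/-*. *Plxna4* changed most among those at 1 RPKM or more. It had 5284, 3174 and 5115 reads in WT, 687, 843 and 655 in *Atm-/-* and 11, 10 and 23 in *Sirt6-/-*. WT replicate 2 was the lowest WT sample but still above both knockouts. Its log2 fold change was -2.77 (standard error 0.15, edgeR adjusted p = 7.2e-10) in *Atm-/-* and -8.31 (0.26, adjusted p = 5.1e-13) in *Sirt6-/-*. *Plxnb3* had 126, 86 and 110 reads in WT and 65, 57 and 65 in *Atm-/-*, and none in the 3 *Sirt6-/-* samples. Against a floor of 3 reads per library it was at least 36.7-fold lower in *Sirt6-/-* than in WT and at least 19.5-fold lower than in *Atm-/-*. *Plxnb1*, a receptor of Sema4D, fell in both (log2 fold changes -1.55 and -0.75). *Plxnd1*, the receptor of Sema3E, fell by less, with 2183 to 2381 reads in WT, 1278 to 1433 in *Atm-/-* and 1560 to 1715 in *Sirt6-/-* (log2 fold changes -0.87 and -0.55). *Plxna1*, a partner of the neuropilins, had log2 fold changes of -0.46 in each knockout, although 10.7% of its exonic bases are shared with an annotated antisense transcript. *Plxna3* was the plexin that rose in both, from 1128, 929 and 1099 reads in WT to 2207, 2250 and 2292 in *Atm-/-* and 1869, 1817 and 1835 in *Sirt6-/-* (log2 fold changes 0.96 and 0.75). The most abundant plexin, *Plxnb2*, stood at 88.9 ± 3.77, 74.7 ± 1.46 and 87.3 ± 1.49 RPKM in WT, *Atm-/-* and *Sirt6-/-*. It fell in *Atm-/-* (log2 fold change -0.41), and its small fall in *Sirt6-/-* (-0.11, adjusted p = 0.034) was lost with library totals (adjusted p = 0.645) and in 4 of 6 fits with a sample left out. *Plxna2* rose in *Sirt6-/-* only among the 2 tests (log2 fold changes -0.01, adjusted p = 0.94, and 0.48); its direct difference between the knockouts was 0.47 (adjusted p = 4.0e-04). *Plxnc1*, the receptor of Sema7A, rose from 2, 7 and 4 reads in WT to 18, 15 and 11 in *Sirt6-/-* (log2 fold change 1.68). This call was lost with the DESeq2 Wald test (adjusted p = 0.0697) and with no filter on reads (edgeR adjusted p = 0.0796). It was also lost without WT replicate 1 or 3 or *Sirt6-/-* replicate 1.

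The membrane-held semaphorins were low, with a summed 24.99 to 26.7 RPKM in WT, 22.6 to 24.4 in *Atm-/-* and 29.99 to 31.6 in *Sirt6-/-*. Of 13 members 5 rose and 4 fell in *Atm-/-*, and 7 rose and 3 fell in *Sirt6-/-*. In WT the leading member was *Sema4a*, best known from immune and retinal cells, with 730, 607 and 641 reads. Only 63, 69 and 51 were counted in *Atm-/-*, and 38, 26 and 36 in *Sirt6-/-* (log2 fold changes -3.57 and -4.35, standard errors 0.14 and 0.16). *Sema4b* took the lead in *Atm-/-*, where it rose from 476, 510 and 494 reads in WT to 1090, 1175 and 1102, and it had 936, 1050 and 943 in *Sirt6-/-* (log2 fold changes 1.05 and 0.93). *Sema5a*, with thrombospondin repeats beside its Sema domain, led in *Sirt6-/-*, at 9.49 ± 0.440 RPKM against 5.19 ± 0.475 in WT and 3.28 ± 0.153 in *Atm-/-*, so it fell in 1 knockout and rose in the other (log2 fold changes -0.82 and 0.78). *Sema6d*, a ligand of plexin A1, was nearly absent from the *Sirt6-/-* samples. It had 465, 498 and 526 reads in WT, 579, 584 and 439 in *Atm-/-* and 2, 5 and 11 in *Sirt6-/-* (log2 fold change -6.39, standard error 0.26, edgeR adjusted p = 1.5e-11, and -7.14 without *Sirt6-/-* replicate 3). The *Atm-/-* value did not pass (-0.03, adjusted p = 0.81), and the direct difference between *Sirt6-/-* and *Atm-/-* was -6.38 (edgeR adjusted p = 5.3e-15, and -7.12 without *Sirt6-/-* replicate 3). *Sema6a*, a ligand of plexins A2 and A4, fell in both, with 451, 346 and 483 reads in WT, 74, 90 and 76 in *Atm-/-* and 8, 2 and 11 in *Sirt6-/-* (log2 fold changes -2.55 and -5.96).

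Several membrane-held semaphorins that were nearly silent in WT rose. *Sema4d*, a ligand of plexin B1, had 14, 11 and 9 reads in WT, 54, 83 and 98 in *Atm-/-* and 327, 232 and 262 in *Sirt6-/-* (log2 fold changes 2.64 and 4.53). *Sema7a*, which is anchored by a lipid, had 9, 11 and 17 reads in WT, 130, 152 and 143 in *Atm-/-* and 280, 202 and 211 in *Sirt6-/-* (3.37 and 4.16). *Sema4f* had 3, 2 and 1 reads in WT, 18, 8 and 29 in *Atm-/-*, too few to test, and 94, 109 and 84 in *Sirt6-/-* (log2 fold change 5.44, and 4.572 with a prior count of 2). *Sema4g* rose by log2 fold changes of 1.11 and 2.89, the first lost without *Atm-/-* replicate 2 (adjusted p = 0.0531). *Sema6c* rose in *Sirt6-/-* (1.99) and did not pass in *Atm-/-* (-0.30), and *Sema6b* the other way around (2.07 in *Atm-/-*; 0.45, not passing, in *Sirt6-/-*). *Sema4c* stood at 4.96, 4.26 and 4.71 RPKM in WT, *Atm-/-* and *Sirt6-/-*. Its log2 fold change of -0.38 in *Atm-/-* passed, but not with library totals (adjusted p = 0.0543), and 7.27% of its exonic bases are shared with another annotated transcript.

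Ephrin-A ligands are tied to the membrane by a lipid anchor and bind mainly EphA receptors. Of 5 members 1 rose and 3 fell in *Atm-/-*, and 2 rose and 3 fell in *Sirt6-/-*. Their summed level was 46.1 to 48.7 RPKM in WT, 31.4 to 33.8 in *Atm-/-* and 47.6 to 49.2 in *Sirt6-/-*, and the leading member differed. In WT *Efna5*, known from the mapping of retinal axons, held 68.2% ± 0.816 of the family's RPKM (SD, n = 3), and in *Sirt6-/-* *Efna1*, first found as a gene induced by tumour necrosis factor in endothelium, held 67.7% ± 0.945. *Efna5* had 5995, 5574 and 5486 reads in WT, 2211, 2424 and 2311 in *Atm-/-* and 1066, 895 and 1073 in *Sirt6-/-* (log2 fold changes -1.43 and -2.54, standard errors 0.05 and 0.07). *Efna1* had 201, 193 and 190 reads in WT, 512, 573 and 545 in *Atm-/-* and 1497, 1522 and 1623 in *Sirt6-/-* (1.34 and 2.94, standard errors 0.11 and 0.08, edgeR adjusted p = 7.9e-08 and 1.8e-13). No 2 genotypes overlapped for either gene. *Efna2* had 356 to 401 reads in WT, 168 to 198 in *Atm-/-* and 92 to 103 in *Sirt6-/-* (log2 fold changes -1.21 and -2.02). *Efna1*, *Efna3* and *Efna4* lie next to each other within this gene set, on the minus strand of chromosome 3, from 89271733 to 89338028, with gaps of 32.8 and 10.4 kb. The middle gene, *Efna3*, fell (log2 fold changes -1.92 and -1.46), while *Efna1* rose, and *Efna4* rose in *Sirt6-/-* (0.93) and did not pass in *Atm-/-* (0.26, adjusted p = 0.11; 0.42 with library totals, adjusted p = 0.0128). Antisense transcripts overlap 14.1% of the exonic bases of *Efna3* and 10.51% of those of *Efna4*, and reads of the 2 strands could not be separated.

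EphA receptors were dominated by *Epha2*, a receptor of ephrin-A1 common in epithelium and tumours, which held 89.8% ± 1.22 of the family's RPKM in WT, 93.1% ± 0.602 in *Atm-/-* and 74.2% ± 1.90 in *Sirt6-/-*. It had 6586, 7540 and 6726 reads in WT, 7393, 7478 and 7785 in *Atm-/-* and 2780, 2773 and 2776 in *Sirt6-/-*. WT and *Atm-/-* overlapped (log2 fold change -0.02 with a standard error of 0.06, adjusted p = 0.81), while *Sirt6-/-* lay below both (-1.38, standard error 0.06, edgeR adjusted p = 1.9e-11). With library totals *Epha2* passed as higher in *Atm-/-* (0.15, adjusted p = 0.0344). *Epha7*, a receptor of ephrin-A5 in the developing brain, was nearly silent in WT with 1, 2 and 4 reads, and had 412, 388 and 282 in *Atm-/-* and 211, 177 and 218 in *Sirt6-/-* (log2 fold changes 7.06 and 6.31). Those sizes rest on few WT reads: without WT replicate 3 they were 7.66 and 6.90, and with a prior count of 2 the fits gave 6.28 and 5.515. *Epha3*, a receptor of ephrin-A5 in mesenchyme, had 6, 5 and 0 reads in WT, 50, 66 and 65 in *Atm-/-* and 113, 148 and 127 in *Sirt6-/-* (3.86 and 5.04). *Epha1* fell in both, from 351, 340 and 293 reads in WT to 67, 50 and 53 in *Atm-/-* and 64, 48 and 38 in *Sirt6-/-* (-2.67 and -2.76), with 6.01% of its exonic bases shared with *Zyx*. *Epha4*, which binds ephrins of both classes, fell in *Atm-/-* and rose in *Sirt6-/-*, with 498 to 738 reads in WT, 317 to 355 in *Atm-/-* and 875 to 1178 in *Sirt6-/-* (-0.99 and 0.71).

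Ephrin-B ligands span the membrane and can signal into their own cell. The family was highest in WT, at 109.3 to 113.2 RPKM, and stood at 47.4 to 51.3 in *Atm-/-* and 26.1 to 30.7 in *Sirt6-/-*. *Efnb2*, a marker of arterial cells and a ligand of EphB4, had 10108, 10738 and 9487 reads in WT, 5410, 5140 and 4916 in *Atm-/-* and 2456, 2156 and 2465 in *Sirt6-/-* (log2 fold changes -1.11 and -2.15, standard errors 0.05 and 0.06). *Efnb1*, whose loss in humans causes craniofrontonasal syndrome, had 4476, 4140 and 4685 reads in WT, 1343, 1385 and 1192 in *Atm-/-* and 1214, 1079 and 1410 in *Sirt6-/-* (-1.90 in each, edgeR adjusted p = 2.4e-12 and 1.2e-11). *Efnb1* did not pass between the knockouts (-0.01, standard error 0.08, adjusted p = 0.88). *Efnb3* was low, at 0.278 RPKM in WT, and rose in *Atm-/-* (1.43); its rise in *Sirt6-/-* (1.08, adjusted p = 0.023) was lost when any of 4 of the 6 samples was left out.

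EphB receptors bind the ephrin-B ligands, and their order by level differed between genotypes. In WT *Ephb2*, *Ephb3* and *Ephb4* stood at 17.3 ± 1.41, 15.9 ± 0.655 and 12.4 ± 0.381 RPKM, and the means of *Ephb2* and *Ephb3* differed by less than the SD of *Ephb2*. *Ephb2* fell from 2595, 2993 and 2847 reads in WT to 392, 399 and 353 in *Atm-/-* and 1232, 1102 and 1139 in *Sirt6-/-* (log2 fold changes -3.02 and -1.33, standard errors 0.08 and 0.07). *Ephb3* fell from 2107 to 2331 reads in WT to 954 to 1038 in *Atm-/-* and 1051 to 1175 in *Sirt6-/-* (-1.30 and -1.05). *Ephb4*, the venous receptor of ephrin-B2, rose to become the leading EphB in both, from 1773, 1813 and 1853 reads to 2365, 2546 and 2281 in *Atm-/-* and 2954, 2733 and 2966 in *Sirt6-/-* (0.27 and 0.62). *Ephb6*, which lacks kinase activity, went from 34, 17 and 20 reads in WT to 157, 234 and 156 in *Atm-/-* and 1375, 1383 and 1508 in *Sirt6-/-* (2.80 and 5.85, standard errors 0.28 and 0.15, edgeR adjusted p = 5.9e-07 and 6.9e-14). At 11.6 ± 0.367 RPKM in *Sirt6-/-* it was above *Ephb2* and *Ephb3* there, at 7.30 ± 0.477 and 8.17 ± 0.317.

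**Figure D4:**
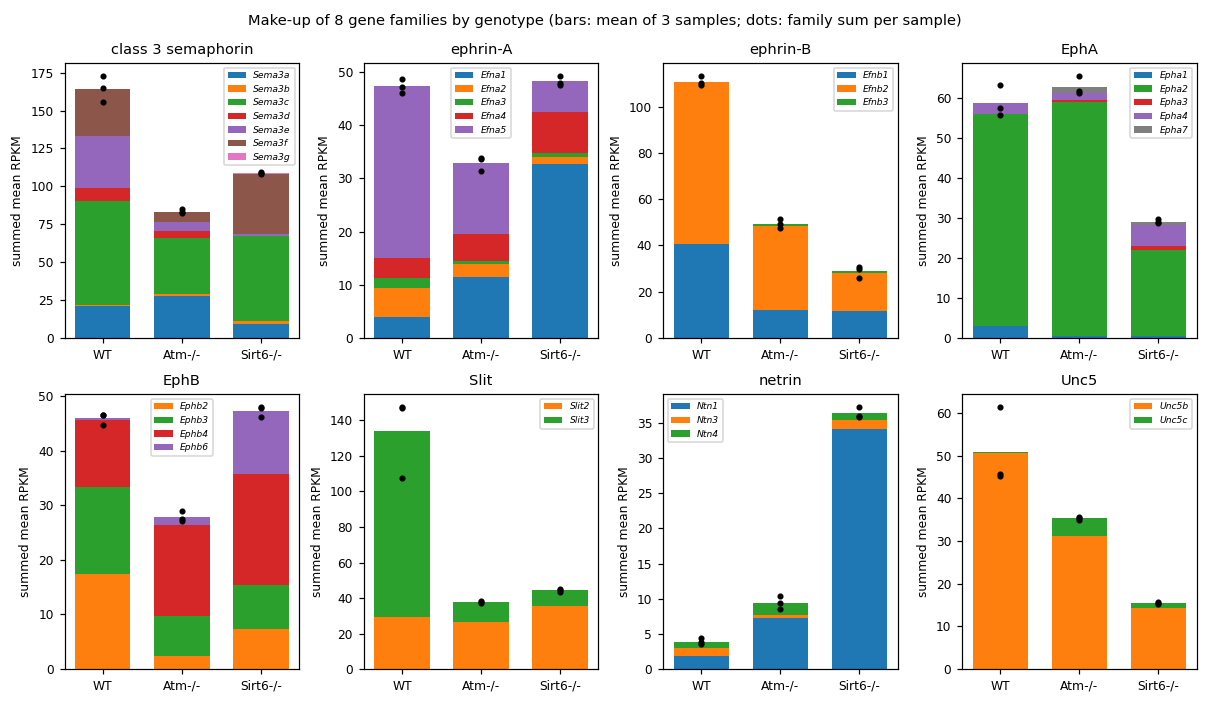
Mean RPKM of the members of 8 families stacked by genotype (bars from 0; members under 0.2 RPKM in every genotype left out), with black dots for the family's sum in each of the 3 samples. The leading ephrin-A changes from *Efna5* in WT to *Efna1* in *Sirt6-/-*, the leading Slit from *Slit3* to *Slit2*, and the netrin sums are higher and the ephrin-B and Unc5 sums lower in both knockouts than in WT.

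Slits are large secreted ligands, and Robo receptors bind them. In WT *Slit3* led, with 19969, 13246 and 19333 reads, the second WT sample lying below the others. There were 1839, 1846 and 1791 in *Atm-/-* and 1403, 1413 and 1430 in *Sirt6-/-*, far below every WT sample (log2 fold changes -3.40 and -3.68, standard error 0.12 in each, edgeR adjusted p = 3.6e-12 and 8.8e-13). *Slit2* changed little, from 8423, 7925 and 8913 reads in WT to 7576, 7792 and 7217 in *Atm-/-* and 9982, 9997 and 10003 in *Sirt6-/-* (-0.30 and 0.19). *Slit3* therefore held 77.7% ± 3.21 of the summed Slit RPKM in WT, and *Slit2* held 70.6% ± 0.423 in *Atm-/-* and 80.5% ± 0.127 in *Sirt6-/-*. The receptors were nearly silent in WT and *Atm-/-*, and present in *Sirt6-/-*. *Robo1* had 20, 43 and 44 reads in WT, 41, 56 and 44 in *Atm-/-* and 1496, 1353 and 1549 in *Sirt6-/-*. Its log2 fold change against WT was 5.30 (standard error 0.16, edgeR adjusted p = 5.0e-13) in *Sirt6-/-* and 0.26 (0.35, adjusted p = 0.53) in *Atm-/-*. *Robo2* had 19, 4 and 14 reads in WT, 31, 46 and 23 in *Atm-/-* and 1115, 1230 and 1167 in *Sirt6-/-* (log2 fold changes 1.29 and 6.50). The *Atm-/-* call of *Robo2* (adjusted p = 0.031) was lost with DESeq2 (adjusted p = 0.0527) and without WT replicate 2 or 3 or *Atm-/-* replicate 1 or 2. Between the knockouts *Robo1* and *Robo2* differed by 5.03 and 5.20 on the log2 scale (edgeR adjusted p = 2.8e-19 and 7.0e-18). *Robo3* had 16, 19 and 7 reads in WT and at most 2 in any knockout sample, too few for the test.

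*Robo1* (chromosome 16 from 72308306 to 73046095, plus strand) and *Robo2* (73891839 to 74411825, minus strand; GRCm38, GENCODE M21) are neighbours in this gene set, 846 kb apart and facing each other. The 250 bases before a RefSeq start of each are shown because both genes rose in *Sirt6-/-* (GRCm38.p6, 5′ to 3′ on the strand of the gene; no letters are in capitals because neither window holds a motif searched).
Robo1, chr16:72662899-72663148, plus strand: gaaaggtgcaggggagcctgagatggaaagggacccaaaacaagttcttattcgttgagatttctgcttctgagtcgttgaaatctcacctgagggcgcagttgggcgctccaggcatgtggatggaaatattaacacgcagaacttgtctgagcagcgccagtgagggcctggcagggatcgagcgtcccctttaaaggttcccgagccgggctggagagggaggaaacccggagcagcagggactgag
Robo2, chr16:74411826-74412075, minus strand: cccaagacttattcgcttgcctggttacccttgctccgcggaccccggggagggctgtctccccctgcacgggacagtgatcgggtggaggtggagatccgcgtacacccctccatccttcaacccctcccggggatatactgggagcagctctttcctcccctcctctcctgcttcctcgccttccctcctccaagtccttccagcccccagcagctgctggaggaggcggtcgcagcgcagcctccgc
They held 11 and 14 CpG, and neither held any of the 4 motifs on either strand. The *Robo2* window lies next to the end of its GENCODE gene model, and the *Robo1* window lies inside its longer gene model. RefSeq lists 2 further *Robo2* starts farther out. The window of the outermost, chr16:75447294-75447543, holds 1 CACGTG and 8 CpG, and the other holds no motif searched.

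Netrins are laminin-related secreted cues. *Ntn1*, the founding attractant of commissural axons, rose from 362, 384 and 338 reads in WT to 1321, 1358 and 1461 in *Atm-/-* and 6221, 6306 and 6694 in *Sirt6-/-*, with no overlap between genotypes. The log2 fold changes were 1.80 (standard error 0.09, edgeR adjusted p = 1.8e-10) and 4.09 (0.06, adjusted p = 3.3e-16), and the difference between the knockouts was 2.28. It held 48.1% ± 3.18 of the netrin RPKM in WT and 93.9% ± 0.512 in *Sirt6-/-*. *Ntn3* fell in *Atm-/-* from 166, 167 and 188 reads to 34, 87 and 48 (-1.76) and did not pass in *Sirt6-/-* (0.14). *Ntn4*, a netrin of basement membranes, rose in *Atm-/-* from 60, 103 and 72 reads to 111, 140 and 165 (0.69, adjusted p = 0.021), a call lost without WT replicate 1 or 3 or *Atm-/-* replicate 3, and did not pass in *Sirt6-/-* (-0.05).

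The Unc5 receptors moved in opposite directions. *Unc5b*, a receptor of netrin 1 in vessels, had 8964, 11948 and 8941 reads in WT, 6059, 6120 and 5940 in *Atm-/-* and 2772, 2670 and 2784 in *Sirt6-/-* (log2 fold changes -0.86 and -1.91, standard error 0.09 in each), the second WT sample being the highest. *Unc5c*, which mediates repulsion by netrin 1 in axons and migrating neurons, had 17, 30 and 28 reads in WT, 1329, 1327 and 1101 in *Atm-/-* and 362, 403 and 357 in *Sirt6-/-* (5.502 and 3.84, standard errors 0.16 and 0.21, edgeR adjusted p = 5.2e-13 and 3.0e-10). Here *Atm-/-* was the highest of the 3 genotypes, and *Sirt6-/-* lay lower by -1.67 on the log2 scale. *Unc5b* still held 88.5% ± 0.945 of the Unc5 RPKM in *Atm-/-* and 92.1% ± 0.662 in *Sirt6-/-*. *Dcc* had 6 reads in 1 *Sirt6-/-* sample and none in the other 8 samples, while *Neo1*, the gene of neogenin, stood at 22.1, 33.4 and 16.8 RPKM in WT, *Atm-/-* and *Sirt6-/-* (log2 fold changes 0.43 and -0.48).

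**Figure D5:**
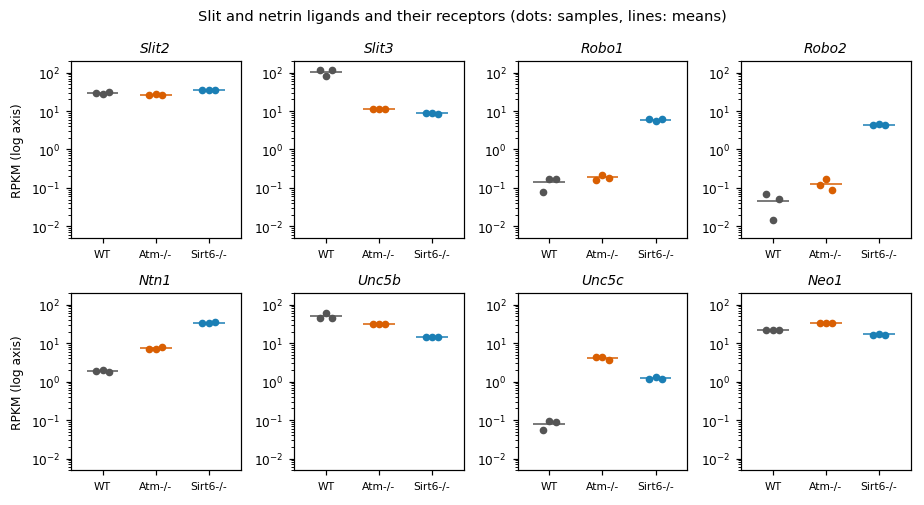
RPKM per sample (log axis) of the Slit and netrin ligands and of receptors for them in WT, *Atm-/-* and *Sirt6-/-*; lines mark means. *Robo1* and *Robo2* lie under 0.25 RPKM in every WT and *Atm-/-* sample and above 4 RPKM in the *Sirt6-/-* samples, and *Ntn1* rises from 1.88 to 7.32 and 34.1 RPKM.

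Set directly against each other, *Sirt6-/-* was higher than *Atm-/-* for 29 guidance genes and lower for 20, with 7 not passing and 13 not tested. Over all 13460 genes of that test 75.8% passed, 37.8% as higher and 38% as lower, and 25.5% passed with a change of at least 2-fold. Among the members 17 were at least 2-fold higher and 13 at least 2-fold lower in *Sirt6-/-*, which was 53.57% of those tested. Their median absolute log2 fold change was 1.099, against 0.4945 over all tested genes. All 4 tested EphB receptors were higher in *Sirt6-/-*, from 0.23 for *Ephb3* to 3.03 for *Ephb6* on the log2 scale. *Sema3f* was higher by 2.63, *Sema5a* by 1.59 and *Epha4* by 1.69, and *Sema3a* was lower by -1.54. *Epha1*, *Efna3*, *Efnb1*, *Efnb3*, *Plxna1*, *Plxnc1* and *Sema4b* did not pass.

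54 further genes of these pathways were read from the same fits: 19 other receptors and secreted partners and 35 intracellular effectors. In *Atm-/-* 13 of them rose, 22 fell, 9 did not pass and 10 were not tested, and in *Sirt6-/-* 17 rose, 20 fell, 4 did not pass and 13 were not tested. Between the knockouts 17 were higher and 17 lower in *Sirt6-/-*. Of those tested 79.55% passed in *Atm-/-*, 90.2% in *Sirt6-/-* and 77.3% between the knockouts, beside 68.4%, 76.6% and 75.8% of all tested genes. At 2-fold or more 52.27%, 53.66% and 43.18% passed, beside 22.5%, 29.3% and 25.5% of all tested genes. The guidance genes' shares were 57.41%, 66.07% and 53.57%. Collapsin response mediators pass semaphorin 3A signals to the cytoskeleton, and 3 of the 5 listed were among the largest changes. *Dpysl3* went from 0.633 RPKM in WT to 57.8 in *Atm-/-* and 9.29 in *Sirt6-/-* (log2 fold changes 6.35 and 3.79), and *Crmp1* from 0.0269 to 1.82 and 1.75 (5.86 and 5.88). *Dpysl5* rose in *Atm-/-* (5.97) and was at 0.00397 RPKM in *Sirt6-/-*, with too few reads to test against WT. Between the knockouts *Dpysl5* was lower in *Sirt6-/-* (-8.53, edgeR adjusted p = 2.8e-14). *Dpysl2* did not pass in *Atm-/-* (0.06, adjusted p = 0.58) and rose in *Sirt6-/-* (1.40), and *Dpysl4* had no reads in any sample. *Ngef*, the gene of ephexin, which acts under EphA receptors, rose from 0.163 RPKM to 6.67 and 5.95 (5.18 and 5.09). Among cell adhesion molecules *L1cam*, a partner of neuropilin 1, rose in both knockouts (3.33 in *Atm-/-* and 6.13 in *Sirt6-/-*). *Nrcam* rose in *Atm-/-* (5.19) from 0.00267 to 0.129 RPKM and had too few reads to test *Sirt6-/-* against WT. Between the knockouts *Nrcam* was lower in *Sirt6-/-* (-3.82, edgeR adjusted p = 2.8e-05). *Ntng2*, a membrane-anchored netrin relative, fell from 5.08 RPKM in WT to 0.389 in *Atm-/-* and 0.591 in *Sirt6-/-* (-3.86 and -3.18), and the difference between the knockouts did not pass (adjusted p = 0.11). The largest falls in *Sirt6-/-* were in *Chn2*, a Rac-inactivating chimaerin, from 12.4 to 0.0517 RPKM (-7.96), *Vav3* (-4.46) and *Srgap1*, an effector of Slit and Robo, from 7.11 to 0.390 RPKM (-4.27). In *Atm-/-* these genes fell by less (*Chn2* -1.04, *Vav3* -1.65 and *Srgap1* -1.99), and each differed between the knockouts (-6.93, -2.82 and -2.30).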

How the data were processed

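RNA-Seq data of 9 MEF samples, 3 each of WT, *Atm-/-* and *Sirt6-/-*, were used. The mRNA had been enriched on oligo(dT), and no step that keeps strand is described. The authors deposited, for each sample, the read count of 24341 genes by symbol, as whole numbers without normalization, with a listed transcript length in bases and RefSeq accessions. The authors also deposited RPKM, made from the same counts, the listed length and the depth, without a correction for library composition. The submitters' processing notes name the build mm10; the aligner and counting tool are not given in the sources used here.

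Each pair of genotypes was fitted on its 6 samples over all genes with edgeR 4.0.16 in R 4.3.3: genes were kept by filterByExpr and scaled by TMM, the quasi-likelihood F test was used (prior count 0.125), and calls needed a Benjamini-Hochberg adjusted p under 0.05. Standard errors come from the F statistic. RPKM were used for levels between genes, for shares and for figures. Alternatives were DESeq2 1.42.0 size factors and Wald test, library totals, no filter, at least 10 counts in every sample, a joint fit of all 9 samples, a block for replicate number, a prior count of 2, a 2-fold threshold, and each sample left out in turn. The fits were tested on simulated counts in which few genes changed, as many up as down, all with ample reads. That setting differs from these data, so it cannot show how the fits behave when most genes change. Nor does it cover genes with few reads. No 2 samples were identical, and the chi-square per gene within a genotype was 5.11 to 15.6, above counting noise.

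Full statistics are given, in each role group, for up to 3 genes with the largest change against WT among those with an adjusted p under 0.05, no overlap and at least 1 RPKM in a group, and for the most abundant member; other members are given by values, and further pathway genes where they changed at least 2-fold, up to 6 a comparison. *Neo1*, *Dcc* and the values of some other members were added outside this rule. Members and lists were chosen with earlier results of these data known. All 69 genes were matched by symbol to GENCODE M21 (GRCm38), and 59 had a RefSeq promoter entry (GRCm38.p6).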

Additional observations from a re-analysis of the deposited data

How the results depend on the processing

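The counts of guidance genes that passed as higher and lower stayed within 1.5 times of the reported ones under every alternative except a 2-fold threshold. That threshold left 18 lower genes in *Atm-/-* (29 without it), 17 higher in *Sirt6-/-* (26), and 17 higher (29) and 13 lower (20) between the knockouts. Of the further pathway genes it left 12 lower in *Atm-/-* (22), 10 lower in *Sirt6-/-* (20), and 9 higher (17) and 10 lower (17) between the knockouts. With at least 10 counts required in every sample, 5 further pathway genes were higher in *Atm-/-* (13), because fewer genes were tested. Of the guidance genes' own log2 fold changes under the alternatives, 2224 kept direction and side of the threshold, 45 lost the call, 8 gained it and 23 changed sign. These counts leave out genes too low to test as reported, and also genes that an alternative no longer tested. With at least 10 counts in every sample, 48 members were tested in *Atm-/-*, 44 in *Sirt6-/-* and 50 between the knockouts. Calls that went untested there include *Epha3*, *Epha7*, *Robo2*, *Sema4d* and *Sema7a* in both knockouts. In *Sirt6-/-* they also include *Sema3d*, *Sema6a*, *Sema6d* and *Plxnb3*. Among the genes too low to test as reported, *Sema4f* in *Atm-/-* and *Robo3* in both knockouts passed with no filter on reads, with DESeq2 and in some fits with a sample left out. *Sema4f* also passed in the joint fit of all 9 samples, and *Slit1* passed between the knockouts with no filter. All sign changes concern values that did not pass as reported, and after the change only *Epha2* in *Atm-/-* with library totals passed (adjusted p = 0.0344). With library totals the *Atm-/-* value was 0.1465 for *Epha2*, 0.1532 for *Plxna2* and 0.1302 for *Sema6d*, and the *Sirt6-/-* value was 0.03958 for *Ntn4*; these scale all genes by depth alone. With at least 10 counts in every sample *Epha2* was at 0.005045 and *Plxna2* at 0.01181 in *Atm-/-*. When single samples were left out, the *Atm-/-* value ran from -0.06028 to 0.05054 for *Epha2*, -0.1188 to 0.07154 for *Plxna2*, -0.03255 to 0.4369 for *Robo1* and -0.08436 to 0.08586 for *Sema6d*, the *Sirt6-/-* value from -0.229 to 0.1906 for *Ntn4*, and the difference between the knockouts from -0.1088 to 0.0664 for *Efnb1* and -0.3297 to 0.06127 for *Epha1*. Between the knockouts the calls of *Nrp1* and *Sema4a* were lost without some samples, and that of *Nrp1* also in the joint fit. *Sema4c*, at an edgeR adjusted p of 0.048 as reported, lost its call in 5 fits with a sample left out. It also lost the call with DESeq2 size factors or Wald test, library totals, no filter, and at least 10 counts in every sample. *Plxnc1* gained a call without *Atm-/-* replicate 2. *Sema4b* gained one with library totals (edgeR adjusted p = 0.0234) and without *Sirt6-/-* replicate 2 (0.0298). The cause of these changes was not tested. Deviations of same-numbered samples from their genotype means had r of -0.0151 to 0.0588, and those of differently numbered samples -0.0713 to 0.0413. These values cannot show whether same-numbered samples shared a preparation. With the replicate number as a block 17 guidance genes were higher and 29 lower in *Atm-/-*, 26 and 26 in *Sirt6-/-*, and 28 and 20 between the knockouts, and the calls of *Robo2* in *Atm-/-* (adjusted p = 0.0535) and of *Sema4c* between the knockouts (0.0583) were lost. Depth limits the genes with few reads in a genotype, such as *Epha7*, *Sema4f* and *Plxnb3*, whose fold changes depend on the prior count.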
